A study of Mus musculus with 6 samples.

Results

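Matrix metalloproteinases (Mmp), Adamts proteases and their Timp inhibitors were examined across 6 two-colour Agilent arrays of mouse mammary cells. The set holds every non-control probe whose gene name on the array is Mmp, Adamts or Timp followed by a number and, in places, the letter a or b. It came to 66 of 55681 probes and 46 of 34821 gene names: 19 Adamts genes (32 probes), 23 Mmp genes (29 probes) and 4 Timp genes (5 probes). Of these genes, 26 had 1 probe and 20 had 2, and a gene was read from its probe of highest mean signal unless its other probe is named. The accession of 59 member probes was found in the RefSeq gene table, and all 59 had the same symbol there; the other probes rest on the array design's own name.

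Basal cells (CD24+CD29hi, called MaSC in the labels) came from C57/B6:Dll1-mCherry reporter mice and were sorted by mCherry into a Dll1-high and a Dll1-low sample, with 1 array each. F4/80+ macrophages came from mammary glands of cKO-Dll1 mice, in which Dll1 was conditionally knocked out (KO), and of wild type (WT) littermates, with 2 arrays each. All mice were virgin females, the labels give no age, and they do not say which cells or exons lose Dll1 or whether samples came from separate animals or from pools. The p-values below therefore measure only the spread between these samples, which may be technical. Each value is a log2 ratio of the sample (Cy5) over a universal reference RNA (Cy3), a mix of 11 mouse cell lines, so 0 means the level of that mix and a ratio does not rank genes by abundance.

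Matrix metalloproteinases and Adamts proteases are secreted or membrane-bound zinc enzymes made as inactive precursors that cut collagens, proteoglycans and other matrix proteins. Timps bind their active site and block them, and Timp3, held in the matrix, also blocks several Adamts and Adam proteases. In the mammary gland, epithelium, fibroblasts and leukocytes all make such enzymes, which are known for remodelling the stroma and basement membrane during duct growth and involution.

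Several facts of the arrays touch these results. Cy5 was well above background for 86.0% and 88.1% of spots on the basal arrays and for 47.4% to 71.9% on the macrophage arrays, where the number of arrays and the dim signal limit precision. Basal arrays were on slide 1 and macrophage arrays on slide 2, so a slide effect and a cell type effect cannot be told apart. Slide 2 carried both replicates 1 in its row 1 and both replicates 2 in its row 2, so replicate number and row go together. Macrophage markers had a median log2 ratio of 2.02 to 3.94 on the macrophage arrays, against -0.44 and -0.28 on the basal arrays. Basal epithelial markers had a median of 4.52 and 3.86 on the basal arrays, against 0.29 to 0.63. WT replicate 1 stood apart: it had the lowest macrophage median (2.02) and the highest fibroblast median of the 6 arrays (1.28, against -0.98 to -0.04). Across the member genes it correlated with the other macrophage arrays at 0.517 to 0.565, while those correlated with each other at 0.854 to 0.966 (Pearson's r over the 46 genes, which are not independent replicates). Dll1 itself read 0.80 and 2.25 on the KO arrays and 0.78 and 3.24 on the WT arrays, so it overlapped between genotypes; whether its probe lies in the deleted part is not stated in the labels. In such bulk samples, fewer cells of a type and less RNA per cell cannot be told apart.

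Most members were measured in basal cells and fewer in macrophages. The gene's probe was well above background on both basal arrays for 39 of the 46 genes, on all 4 macrophage arrays for 21, and on all 6 arrays for 20. Over all spots, the share above background was also higher on the basal arrays (86.0% and 88.1%) than on the macrophage arrays (47.4% to 71.9%). All 4 Timp genes were measured on all 6 arrays, against 10 of 23 Mmp genes and 6 of 19 Adamts genes. Measured on both basal arrays and on no macrophage array were 3 genes: Adamts20, a proteoglycan-cleaving protease, Mmp1a, a collagenase, and Mmp27, whose other probe was above background on WT replicate 1. Their log2 ratios differed little between basal cells and macrophages, by -0.07, 0.13 and 0.15. The dimmest signal still above background was lower on the basal arrays (log2 5.55 and 5.69) than on the macrophage arrays (6.22 to 6.69). Detection on basal arrays alone therefore shows no cell type difference for these 3 genes. Mmp8, the collagenase best known from neutrophils, was the only gene measured on all 4 macrophage arrays and on no basal array. Mmp1b, Mmp16, Mmp20 (the enamel protease), Mmp21 and Adamts19 were not well above background on any array, and Adamts6 only on WT replicate 2.

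**Figure D1:**
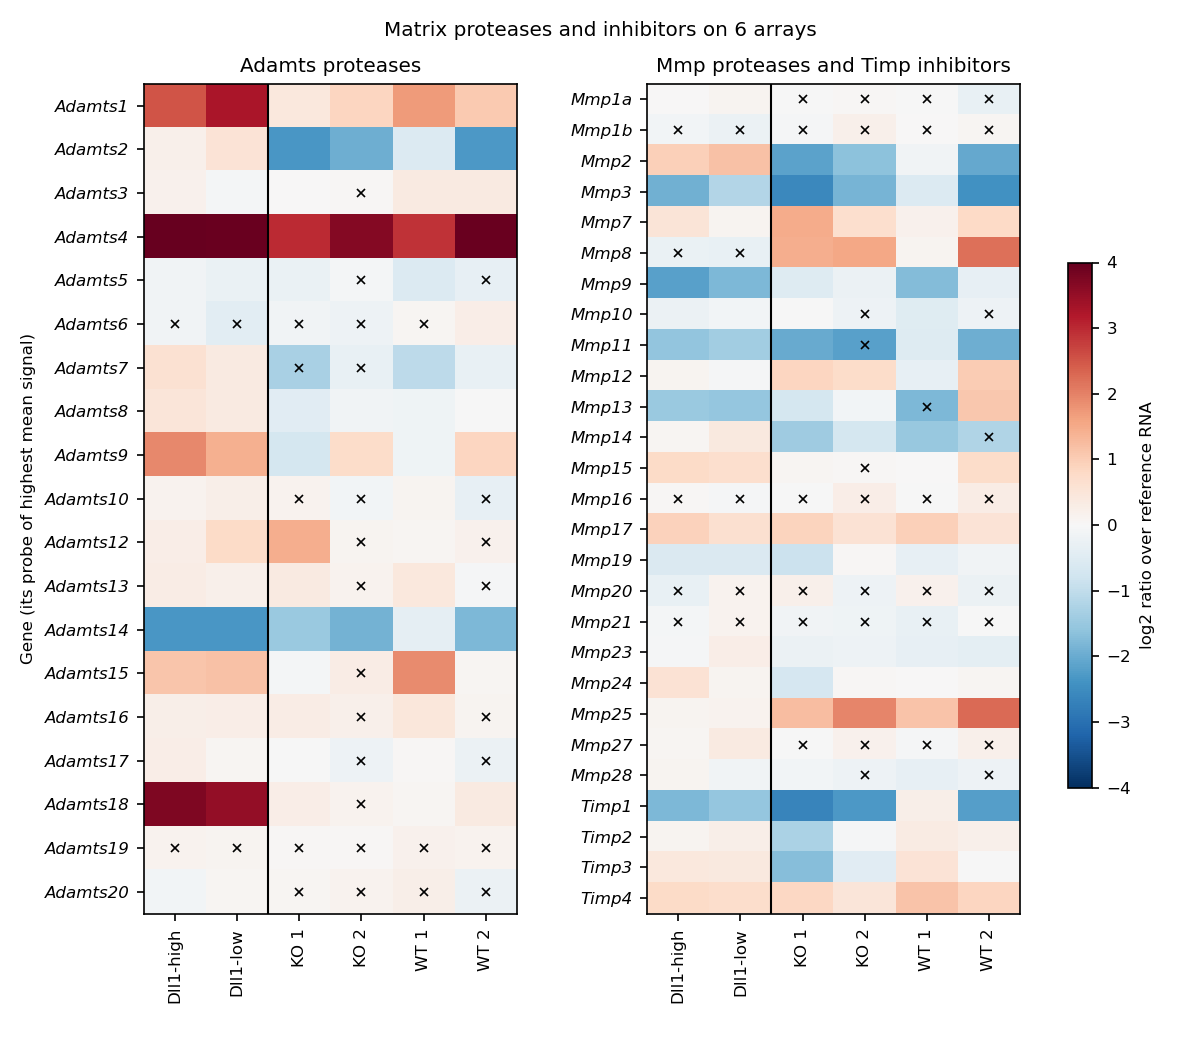
Log2 ratio over the reference RNA (colour, from -4 to 4) of the 46 member genes (rows, each by its probe of highest mean signal) on the 6 arrays (columns; the line parts 2 basal from 4 macrophage arrays). A cross marks a value not well above background; crosses are few on the basal arrays and most frequent on KO replicate 2, and Adamts18, Adamts1 and Adamts4 are the deepest red in basal cells.

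The comparison of basal cells with macrophages asked which proteases and inhibitors each cell type carries. Higher in basal cells, by at least 2-fold and with both basal arrays above all 4 macrophage arrays, were 7 of 40 genes tested (17.5%): Adamts18, Mmp2, Adamts2, Adamts1, Adamts9, Mmp14 and Adamts7. Over all 47682 probes tested, 4.63% met the same rule. Lower by the same rule were 3 of 40 genes (7.5%), Mmp8, Mmp25 and Mmp9, against 6.24% of all probes. In limma with Benjamini-Hochberg adjustment over all probes, 0 of 40 members and 0% of all probes passed 0.05. At an unadjusted p under 0.05 were 6 members higher in basal cells (Adamts18, Adamts1, Mmp14, Mmp2, Adamts2 and Adamts8; 6.37% of all probes) and 1 lower (Mmp25; 6.75%). With the replicate number as a block, a fit chosen after seeing the data, Adamts18 passed (adjusted p = 0.0482, limma). The other Adamts17 probe passed too (adjusted p = 0.0482, limma), as did 0.26% of all probes in that direction and 0.41% in the other. By any amount, 28 members (70%) were higher and 12 lower in basal cells, where 46.7% of all probes were higher, with a median difference of 0.17 against -0.03 over all probes. With the scanner's processed signals, as in the authors' value table, the basal minus macrophage difference was larger for Mmp8 (-5.27), Mmp25 (-4.67), Mmp14 (2.73) and Adamts7 (2.54) than the values given below, in the same directions. The fit takes its spread from the macrophage replicates alone, since each basal state has 1 array.

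Adamts18, a secreted protease known to act on the basement membrane of mammary epithelium, had the largest difference of the 40 genes. Its log2 ratios were 3.75 in Dll1-high and 3.53 in Dll1-low cells, 0.27 and 0.15 on the KO arrays, and 0.09 and 0.35 on the WT arrays. Both basal arrays were far above the macrophage arrays, which lay close to the reference. The difference was 3.42 (SE 0.19; adjusted p = 0.0535 in limma, 6 arrays). Its other probe gave a smaller difference of 1.48 and was not well above background on any macrophage array, which made basal cells at least 2.33-fold higher. Such a lower bound compares mean normalized Cy5 signals, taking on each array of the dim group the probe's own signal or the dimmest signal among probes still above background, whichever is higher, and is open to dye bias. The main probe lies at chr8:116222720-116222779 (mm9).

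**Figure D2:**
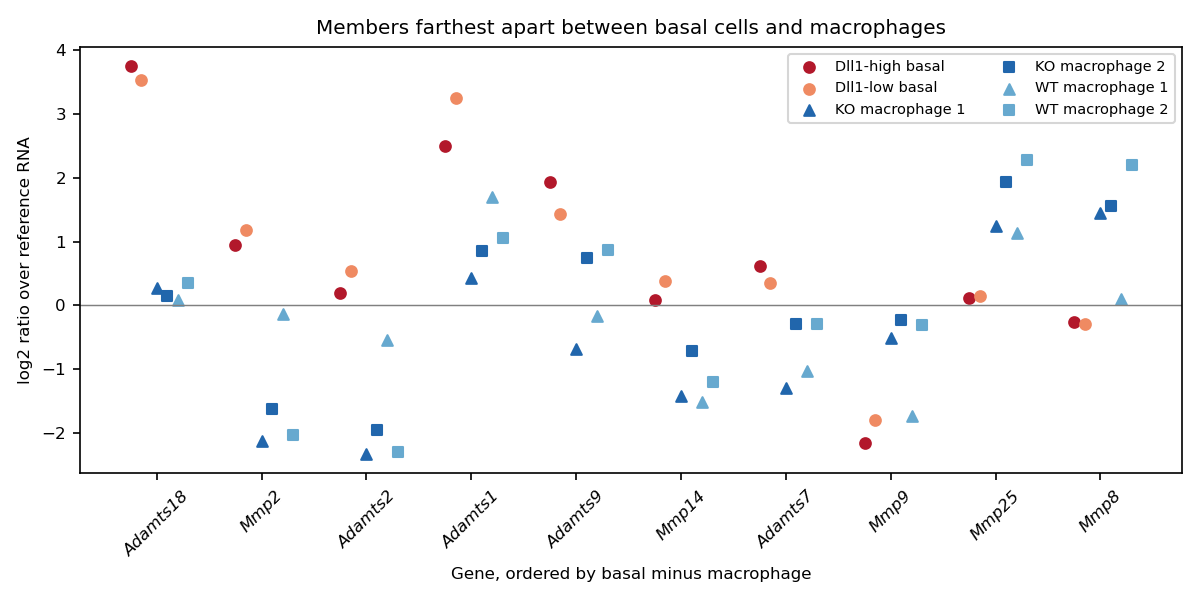
Log2 ratio over the reference RNA (vertical axis) on each of the 6 arrays (points, by cell type, state, genotype and replicate) for the 10 member genes farthest apart between basal cells and macrophages (horizontal axis, ordered by difference). Circles lie above all macrophage points for the first 7 genes, from Adamts18 to Adamts7, and below them for Mmp9, Mmp25 and Mmp8.

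Adamts1, which cuts the proteoglycans aggrecan and versican, read 2.50 and 3.26 in Dll1-high and Dll1-low cells. On the macrophage arrays it read 0.43 and 0.86 (KO) and 1.70 and 1.05 (WT). The basal arrays were both above the highest macrophage array, WT replicate 1, and the difference was 1.87 (SE 0.30; adjusted p = 0.129). Adamts9, a related proteoglycanase, read 1.93 and 1.43 in basal cells, -0.69 and 0.74 on the KO arrays and -0.17 and 0.86 on the WT arrays. Here the replicates 2 of both genotypes sat above the replicates 1, and the difference of 1.49 (SE 0.58; adjusted p = 0.428) was 0.24 in its other probe. Adamts7, which cuts cartilage oligomeric matrix protein, read 0.62 and 0.35 in basal cells against -1.30 and -0.30 (KO) and -1.03 and -0.29 (WT), a difference of 1.21 (SE 0.43; adjusted p = 0.384). Both KO values of Adamts7 were not well above background.

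Adamts4, an aggrecanase, was far above the reference in every sample by its main probe. That probe read 4.00 and 3.94 in basal cells, 2.99 and 3.66 on the KO arrays, and 2.88 and 3.96 on the WT arrays. WT replicate 2 lay between the basal values, so the groups overlapped (difference 0.60, SE 0.44; adjusted p = 0.729). Its other probe was lower, at 1.12 and 1.13 in basal cells, 0.85 and 1.01 on the KO arrays and -0.08 and 1.62 on the WT arrays, a difference of 0.28. Adamts5, the other main aggrecanase, stayed between -0.56 and -0.08 on all arrays, and 2 of its macrophage values were not well above background.

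Adamts2 trims the amino-terminal propeptide from fibrillar procollagens, as do Adamts3 and Adamts14. Its main probe read 0.19 and 0.55 in basal cells, -2.33 and -1.95 on the KO arrays, and -0.54 and -2.30 on the WT arrays. All macrophage arrays were below the basal ones, and WT replicate 1 was the nearest to them. The difference was 2.15 (SE 0.59; adjusted p = 0.275), whereas the other probe, measured on all 6 arrays, gave -0.07. Adamts14 went the other way, at -2.33 and -2.34 in basal cells against -1.48, -1.90, -0.37 and -1.80 on KO 1, KO 2, WT 1 and WT 2. Its difference was -0.95 (SE 0.50; adjusted p = 0.587) in the main probe and 0.12 in the other. Adamts3 differed by -0.14 (SE 0.17; adjusted p = 0.891).

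The probes of 7 among the 20 genes with 2 probes gave basal minus macrophage differences more than 1 apart: Adamts2, Adamts8, Adamts9, Adamts10, Adamts14, Adamts17 and Adamts18. For Adamts17, a protease linked to fibrillin fibres, the main probe gave 0.26 (SE 0.20). The other probe read 4.05 and 2.79 in Dll1-high and Dll1-low cells and between -0.33 and 0.30 on the macrophage arrays. It was not well above background on any macrophage array, which made basal cells at least 7.24-fold higher. For Adamts8, a proteoglycanase, the main probe gave 0.63 (SE 0.20; adjusted p = 0.345). The other probe read 3.01 and 2.64 in basal cells and 0.26 to 0.36 on the macrophage arrays, none of the latter well above background. Why the probes of a gene differ was not tested.

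The probe letters are shown for Adamts2, whose 2 probes disagree, and for the main probes of Adamts17 and Adamts8, since a value belongs to the stretch of transcript that a probe reads. All are 60 bases long and come from the array files, 5′ to 3′. On mm9 the first Adamts2 probe lies at chr11:50617472-50617531 and the Adamts8 probe at chr9:30751050-30751109.
Adamts2, main probe: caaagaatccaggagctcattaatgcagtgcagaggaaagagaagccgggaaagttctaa
Adamts2, other probe: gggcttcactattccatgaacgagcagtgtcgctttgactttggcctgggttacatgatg
Adamts17, main probe: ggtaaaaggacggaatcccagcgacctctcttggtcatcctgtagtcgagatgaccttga
Adamts8, main probe: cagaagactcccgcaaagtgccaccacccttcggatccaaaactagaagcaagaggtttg

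**Figure D3:**
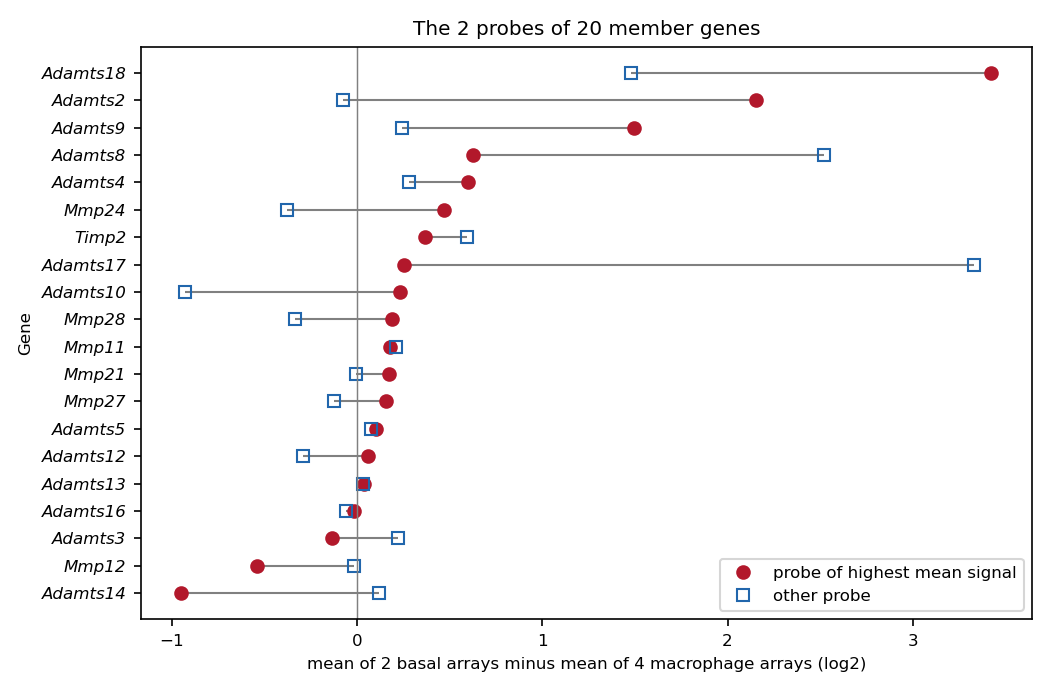
Difference between the mean of 2 basal arrays and the mean of 4 macrophage arrays (horizontal axis, log2) for both probes of the 20 genes that have 2, unfiltered. Filled circles are the probe of highest mean signal, open squares the other, and a line joins them; Adamts17 is widest apart (0.26 and 3.33), then Adamts2 (2.15 and -0.07).

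Among the Mmp genes, Mmp2 and Mmp9 are the gelatinases, which cut denatured collagen and the collagen IV of basement membranes, and they differed in opposite directions. Mmp2 read 0.95 and 1.19 in basal cells, -2.13 and -1.63 on the KO arrays, and -0.14 and -2.04 on the WT arrays. The basal arrays were above all macrophage arrays, and WT replicate 1 was the nearest to them (difference 2.55, SE 0.64; adjusted p = 0.242). Mmp9, read from 10 spots on each array, was at -2.16 and -1.80 in basal cells, -0.51 and -0.22 on the KO arrays, and -1.73 and -0.31 on the WT arrays. WT replicate 1 lay just above the basal values and the other 3 macrophage arrays well above them (difference -1.28, SE 0.49; adjusted p = 0.416).

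Mmp14, the membrane-bound enzyme that activates the Mmp2 precursor with the help of Timp2, was also higher in basal cells. It read 0.09 and 0.38 there, against -1.42 and -0.72 (KO) and -1.52 and -1.20 (WT), the last not well above background. The groups did not overlap, and the difference was 1.45 (SE 0.30; adjusted p = 0.182). Of the other membrane-bound members, Mmp15 differed by 0.49 (SE 0.28) and Mmp17 by 0.04 (SE 0.24), both with overlapping arrays. Mmp24 differed by 0.47 (SE 0.29), its Dll1-low value of 0.09 lying just above the highest macrophage value of 0.07. Mmp25, a membrane-anchored enzyme known from leukocytes, was higher in macrophages. It read 0.12 and 0.14 in basal cells, 1.25 and 1.94 on the KO arrays, and 1.14 and 2.27 on the WT arrays. All macrophage arrays were above the basal ones, with the replicates 2 highest (difference -1.52, SE 0.45; adjusted p = 0.307).

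Mmp8 read -0.26 and -0.30 in basal cells, where it was not well above background, 1.45 and 1.56 on the KO arrays, and 0.10 and 2.21 on the WT arrays. WT replicate 1 was far below the other 3 macrophage arrays (measured difference -1.61, SE 0.69; adjusted p = 0.477). Mmp13, another collagenase, read -1.48 and -1.56 in basal cells, -0.71 and -0.10 on the KO arrays, and -1.79 and 1.07 on the WT arrays, so WT replicate 1, not well above background, lay below the basal cells. Mmp12, the macrophage elastase, read 0.11 and -0.05 in basal cells against 0.87, 0.74, -0.32 and 1.01 on KO 1, KO 2, WT 1 and WT 2. Apart from WT replicate 1, its macrophage arrays were above the basal ones (difference -0.54, SE 0.46; adjusted p = 0.790). Mmp7, or matrilysin, an epithelial enzyme in many tissues, read 0.50 and 0.11 in basal cells, 1.48 and 0.68 on the KO arrays, and 0.18 and 0.80 on the WT arrays, with overlap.

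Markers of other cell types moved with some of these values. Without WT replicate 1, the basal minus macrophage difference was 3.03 for Mmp2, 2.59 for Adamts2, -2.13 for Mmp8 and -1.64 for Mmp9, each larger in size. For each of these genes WT replicate 1 was the macrophage array nearest the basal ones, so leaving it out had to enlarge the difference. That array had the highest summed Cy5 signal of the 9 fibroblast markers, 119130 against 24374 to 42127 on the other 5 arrays. Among macrophage arrays it also had the highest sums of luminal (46506 against 18831 to 23309) and basal epithelial markers (33781 against 10846 to 18478). Both lists were split: of the luminal markers Krt8, Krt18, Krt19 and Prlr were highest on that array, but Elf5, Kit, Esr1 and Ltf lowest. Of the basal markers Krt5, Trp63, Acta2, Oxtr and Tagln were highest there, but Krt17 and Myh11 lowest. The summed mast cell markers were also highest there (27319 against 3814.5 to 6373.7), and that list was split too. Tpsb2 was highest on that array (6.64 against -0.21 to 1.91 on the other macrophage arrays). Cpa3 (0.43 against 2.55 to 3.28), Kit, Mcpt4, Cma1 and Fcer1a were lowest there, Cma1 and Fcer1a not well above background. Ms4a2 was highest there but not well above background on any array. Of the fibroblast markers 8 or 9 were well above background on every array, and Col1a1 read 0.34 on WT replicate 1 against -2.76 to -2.05 on the other macrophage arrays. The fibroblast markers Dpt and Pi16 were not highest there: Dpt read -0.47, the lowest of the macrophage arrays, and Pi16 3.90 against 3.94 on KO replicate 2. Neutrophil markers (7 genes) had a median of 1.23 on WT replicate 1, 2.02 on KO replicate 2, 3.33 on KO replicate 1 and 3.84 on WT replicate 2. Their median was 0.04 and 0.02 on the basal arrays. Elane, of the same list, went the other way and was highest on WT replicate 1 (2.01 against 0.34 to 1.55 on the other macrophage arrays). S100a9, Camp and Retnlg were high on macrophage arrays, while Ly6g and Cxcr2, which define neutrophils, read -0.11 to 0.26 on all 4. Cxcr2 was not well above background on any macrophage array, and Ly6g only on KO replicate 1 and WT replicate 1. Their ratios there lie near the floor and say little about neutrophils. Mmp8 was lowest on the macrophage array with the lowest neutrophil median and highest on that with the highest. The part of fibroblast, neutrophil or other cell type RNA in these differences was not tested.

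**Figure D4:**
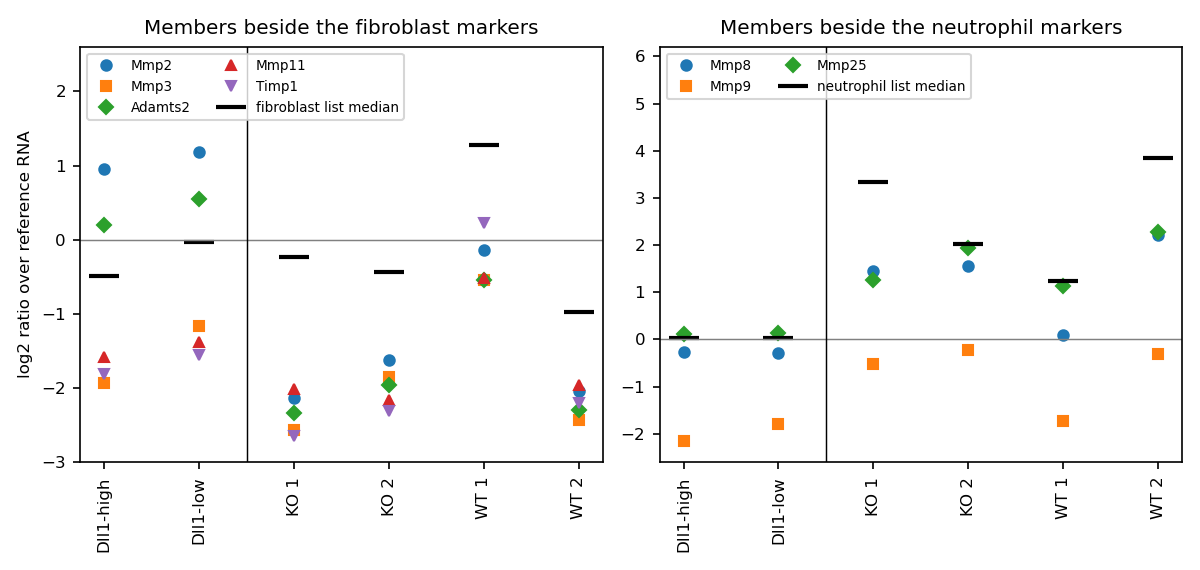
Log2 ratio over the reference RNA (vertical axis) on the 6 arrays for Mmp2, Mmp3, Adamts2, Mmp11 and Timp1 beside the median of 9 fibroblast markers (left, black bars), and for Mmp8, Mmp9 and Mmp25 beside the median of 7 neutrophil markers (right, black bars). On the left, all 5 members and the marker median are highest among macrophage arrays on WT replicate 1. On the right, all 3 members are lowest there among macrophage arrays. Mmp13 and Mmp14, not shown, were also lowest there.

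By their main probes, the Timp inhibitors overlapped between basal cells and macrophages. Their differences were 0.05 (SE 0.79) for Timp1, 0.37 (SE 0.42) for Timp2, 0.81 (SE 0.46) for Timp3 and -0.08 (SE 0.22) for Timp4, with adjusted p from 0.622 to 0.996 (limma). The other Timp2 probe did not overlap, at -0.21 and -0.27 in basal cells against -0.94 to -0.67 on the macrophage arrays (difference 0.60, SE 0.20; adjusted p = 0.357).

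In macrophages, the comparison of KO with WT asked whether loss of Dll1 in the mouse goes with a change in these genes. In limma with Benjamini-Hochberg adjustment, 0 of 36 member genes and 0% of all 34901 probes tested passed 0.05. At an unadjusted p under 0.05 were 0 members and 0.146% of all probes. The median KO minus WT difference over the members was -0.13, against -0.07 over all probes. Both KO arrays lay below both WT arrays for 7 of 36 genes (19.4%), where 12.8% of all probes did, and above both for 2 genes (5.56%; 7.28% of all probes). The 7 genes were Timp1, Timp2, Timp3, Timp4, Adamts1, Adamts3 and Mmp11, and the 2 were Adamts5 and Mmp23. At least 2-fold lower without overlap were Timp1 and Timp3 (0.894% of all probes), and 0 members were 2-fold higher (0.691%). By any amount, 25 members were lower (69.4%; 57.8% of all probes) and 11 higher in KO, a split that became 7 lower and 29 higher when arrays were centred on their median instead of by loess. That centring moved the median of all probes from -0.07 to 0.39.

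All 4 Timp genes lay on the same side in this comparison. Timp1, a secreted inhibitor of most matrix metalloproteinases, read -2.65 and -2.31 on the KO arrays and 0.23 and -2.21 on the WT arrays. WT replicate 1 stood far above the other 3, which lay within a narrow range. The KO minus WT difference was -1.49 (SE 0.90; adjusted p = 1.00), with -2.87 between the replicates 1 (row 1) and -0.10 between the replicates 2 (row 2), and -0.27 without WT replicate 1. Timp1 read -1.81 and -1.56 in basal cells. Its probe lies at chrX:20451802-20451861 (mm9).

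Timp3 read -1.71 and -0.46 on the KO arrays and 0.54 and -0.02 on the WT arrays. Both KO arrays were below both WT arrays, with KO replicate 1 lowest. The difference was -1.34 (SE 0.56; adjusted p = 1.00), -2.25 in row 1, -0.44 in row 2 and -1.06 without WT replicate 1. Basal cells read 0.42 and 0.38, within the range of the WT arrays. Its probe lies at chr10:85811696-85811755 (mm9).

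Timp2, which inhibits Mmp2 and also takes part in its activation, read -1.25 and -0.05 on the KO arrays and 0.32 and 0.22 on the WT arrays. The WT arrays lay close together and KO replicate 1 well below them, for a difference of -0.92 (SE 0.51; adjusted p = 1.00), -1.57 in row 1 and -0.27 in row 2. The other Timp2 probe read -0.94 and -0.67 (KO) and -0.77 and -0.94 (WT), which overlapped, with a difference of 0.05 (SE 0.31). Timp4 read 0.81 and 0.50 on the KO arrays and 1.14 and 0.85 on the WT arrays, close to 0.78 and 0.71 in basal cells. Its difference was the smallest of the 4, -0.34 (SE 0.33; adjusted p = 1.00), and close in both rows (-0.33 and -0.36). Median centring turned the difference of Timp2 to 0.31 and of Timp4 to 0.02 and left Timp1 at -0.27 and Timp3 at -0.16, so the shared direction of the 4 depends on the scaling. Single arrays also moved these values: the difference was -0.72 for Timp3 and -0.32 for Timp2 without KO replicate 1, -1.52 for Timp2 without KO replicate 2, and -2.70 for Timp1 without WT replicate 2.

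Markers of other cell types also differed between KO and WT. Of 8 endothelial markers, 4 were lower on both KO arrays than on both WT arrays, as were 12.8% of all probes. The median difference over that list was -0.87. Cdh5, the endothelial cadherin, read 3.97 and 4.42 on the KO arrays and 5.96 and 6.66 on the WT arrays. The summed Cy5 signal of the endothelial markers was 13658 and 28202 on the KO arrays and 27121 and 71762 on the WT arrays, which overlapped. Of 12 macrophage markers, 4 were higher on both KO arrays, as were 7.28% of all probes, with a median difference of 0.54 over the list. Their summed signal was 154410 and 202610 on the KO arrays and 49693 and 145600 on the WT arrays, without overlap. Of 7 lymphocyte markers, 3 were higher on both KO arrays and 0 lower, with a median difference of 0.67. The part of these cell types in the Timp differences was not tested.

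**Figure D5:**
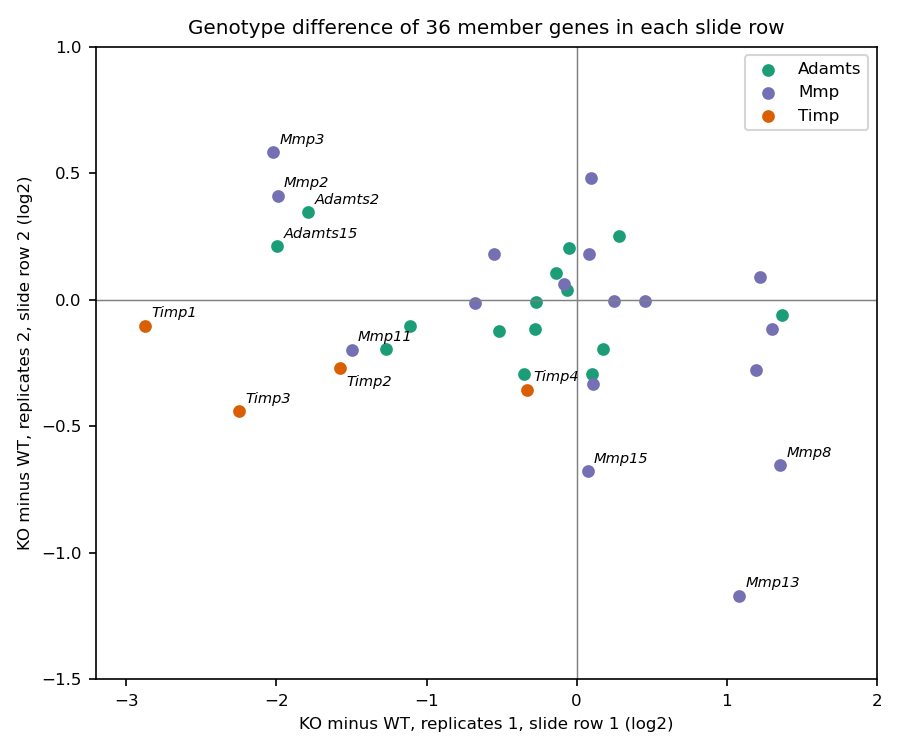
KO minus WT difference (log2) of the 36 member genes tested, between the replicates 1 (horizontal axis, slide row 1) and between the replicates 2 (vertical axis, slide row 2), coloured by family. The 4 Timp genes lie below 0 on both axes, while Mmp2, Mmp3, Adamts2 and Adamts15 lie below 0 in row 1 and above 0 in row 2.

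The rows differed in how far the members were apart. In row 1, 10 of 36 members were at least 2-fold lower in KO (27.8%; 15.9% of all probes) and 6 at least 2-fold higher (16.7%; 8.9% of all probes). In row 2, 1 member, Mmp13, was 2-fold lower (2.78%; 0.552%) and 0 were higher (0.265%). WT replicate 1 was the highest of the 4 macrophage arrays for 16 of 36 genes (44.4%, against 41.2% of all probes) and the lowest for 14 (38.9%, against 30.1%).

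The genes highest on WT replicate 1 included stromal enzymes. Other matrix proteases were lowest there among macrophage arrays, such as Mmp14 (-1.52 against -1.42 to -0.72) and Mmp13 (-1.79, not well above background, against -0.71 to 1.07). Mmp3, or stromelysin-1, read -2.57 and -1.85 on the KO arrays and -0.55 and -2.43 on the WT arrays, so that WT replicate 2 lay among the KO values (difference -0.72, SE 0.76). Mmp11, or stromelysin-3, known from fibroblasts around epithelium, read -2.01 and -2.16 (KO, the second not well above background) and -0.51 and -1.96 (WT), for a difference of -0.85 (SE 0.58). Adamts15, a proteoglycanase, read -0.09 and 0.30 (KO, the second not well above background) and 1.90 and 0.08 (WT). Its rows differed in sign, -1.99 and 0.21, and the difference of -0.89 (SE 0.71) became 0.02 without WT replicate 1. Adamts14 changed sign in the same way, from -0.61 (SE 0.59) to 0.11. In each case WT replicate 1 was above the other 3 arrays. It also had the highest summed fibroblast, luminal, basal epithelial and mast cell markers of the macrophage arrays, though each of these lists held markers that were lowest there. Their part was not tested.

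Among the 6 genes at least 2-fold higher in KO in row 1 were 5 Mmp genes, named here after their values were seen. KO minus WT there was 1.35 for Mmp8, 1.22 for Mmp9, 1.19 for Mmp12, 1.09 for Mmp13 and 1.30 for Mmp7. In row 2 the same genes differed by -0.65, 0.09, -0.28, -1.17 and -0.11. Mmp25, also known from leukocytes, differed by 0.11 in row 1 and -0.33 in row 2. Of the 5 genes only Mmp9 kept its sign, and over both rows it differed by 0.65 (SE 0.58; adjusted p = 1.00 in limma).

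Between the Dll1 states of the basal cells, no member reached a 2-fold difference. With 1 array per state, there is no replicate check and no test. Of 39 member genes, 0 were at least 2-fold higher in Dll1-high cells and 0 at least 2-fold lower, against 0.0786% and 0.0766% of 49638 probes. Differences ran from -0.77 to 0.50, with 19 genes higher (48.7%; 44.6% of all probes), 20 lower and a median of -0.0004 (-0.03 over all probes). At least 0.5 apart were 4 genes (10.3%; 3.93% of all probes): Mmp3, Adamts1, Adamts12 and Adamts9.

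The members farthest apart were Mmp3 (-1.94 in Dll1-high and -1.17 in Dll1-low cells, a difference of -0.77) and Adamts1 (2.50 and 3.26, a difference of -0.76), both lower in Dll1-high cells. Adamts12, which cuts cartilage oligomeric matrix protein, read 0.26 and 0.78 (difference -0.52), but 0.44 from the Cy5 channel alone. Higher in Dll1-high cells were Adamts9 (1.93 and 1.43, difference 0.50) and Mmp24, a membrane-bound enzyme (0.58 and 0.09, difference 0.49). The 9 fibroblast markers differed by a median of -0.57 in the same direction as Mmp3 and Adamts1; their part in these values was not tested. The other Adamts17 probe was the only member probe over 2-fold, at 4.05 and 2.79, a difference of 1.26, where the main probe gave 0.20. It was singled out after its values were seen. Timp differences were small: -0.25 for Timp1, -0.14 for Timp2, 0.04 for Timp3 and 0.07 for Timp4.

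Several Mmp genes are neighbours: 10 of the 46 member genes had their probe on chromosome 9 within 415 kb (mm9, 7282762 to 7697700), the cluster of Mmp1a, Mmp1b, Mmp3, Mmp7, Mmp8, Mmp10, Mmp12, Mmp13, Mmp20 and Mmp27. Promoters were found in the RefSeq table (GRCm38.p6) for 32 member genes. The AP-1 motif TGANTCA, the site of Fos and Jun factors and its own reverse complement, occurred in the 250 bases before a start for 8 of the 10 cluster genes and 0 of the other 22 genes. Among all 32851 promoters of that length, 6.75% held it. A TATAAA, searched in the gene's direction, was found in 7 cluster genes and 2 others, and in 7.59% of all promoters. These matches describe letters and show no binding.

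The 100 bases before the start are shown for the cluster genes whose values are given above, with the AP-1 motif in capitals, 5′ to 3′ on the plus strand, because neighbours that share the motif differed in where they were high. Mmp12 and Mmp7 have a pair of starts in the table, and the window with the motif is shown. Mmp3 is at chr9:7445722-7445821, Mmp7 at chr9:7691990-7692089, Mmp12 at chr9:7347274-7347373, Mmp13 at chr9:7272414-7272513 and Mmp8 at chr9:7558329-7558428 (GRCm38.p6).
Mmp3: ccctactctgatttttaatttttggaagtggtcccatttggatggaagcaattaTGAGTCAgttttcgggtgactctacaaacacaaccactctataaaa
Mmp7: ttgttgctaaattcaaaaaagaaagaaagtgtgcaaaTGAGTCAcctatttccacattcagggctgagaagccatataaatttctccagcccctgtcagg
Mmp12: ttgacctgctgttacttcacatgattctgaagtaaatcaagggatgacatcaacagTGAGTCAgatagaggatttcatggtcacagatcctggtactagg
Mmp13: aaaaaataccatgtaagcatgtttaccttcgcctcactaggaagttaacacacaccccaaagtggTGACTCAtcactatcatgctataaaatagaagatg
Mmp8: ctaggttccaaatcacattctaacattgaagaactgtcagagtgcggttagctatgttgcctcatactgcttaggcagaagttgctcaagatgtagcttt

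The motif began 46 bases before the start in Mmp3, 63 in Mmp7, 44 in Mmp12 and 35 in Mmp13, and Mmp8 had none in its window. Among macrophage arrays Mmp3 was highest on WT replicate 1, whereas Mmp7, Mmp8, Mmp12 and Mmp13 were all lowest there. Over all probes tested, WT replicate 1 was the highest macrophage array for 41.2% and the lowest for 30.1%. The part of the motif in these values was not tested. Mmp10, also with the motif, stayed between -0.48 and -0.02 on all arrays.

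Genes that act with these proteases were taken from 7 lists. In none of the lists did a gene pass 0.05 between KO and WT (limma, adjusted). At least 2-fold and without overlap between the cell types, 1 of 10 plasminogen activation genes was higher in basal cells and 2 were lower (4.63% and 6.24% of all probes, here and for the lists that follow). Plat, a plasminogen activator, differed by 1.06, Plaur, the urokinase receptor, by -1.69 and Serpinb2, an inhibitor, by -3.88. Of 4 proprotein convertases, which activate protease precursors, Pcsk5 was higher in basal cells (2.87). Among 9 Adam proteases, most of them membrane sheddases, 0 were higher and 3 lower: Adam8 (-6.42), Adamdec1 (-3.14) and Adam19 (-2.69). Of 6 Adamts-like proteins, which lack the protease domain, Papln was higher (3.21). Among 8 cathepsins, lysosomal proteases, and their inhibitor, 1 was higher (Ctsl, 1.61) and 3 lower (Ctsh, -3.39, Ctsb, -1.30, and Ctsz, -1.29). Ctss and Cst3 had no value on KO replicate 1, where their spots were marked as outliers, and could not be counted. From the other 3 macrophage arrays their differences were -6.67 and -1.89. Likewise Fn1, a substrate (difference -1.85), and S100a10, a plasminogen receptor subunit (1.26), had no value on KO replicate 2 (differences from the other 3 macrophage arrays) and were not counted. Of 9 other inhibitors and cofactors, Spock3 (1.06) and Lrp1 (1.07), a receptor that clears proteases, were higher. Of 13 substrates, 4 were higher, among them the basement membrane collagen Col4a1 (3.14) and the proteoglycan Vcan (1.89), and 1 lower, Vwf (-1.64), which Adamts13 cuts. Between Dll1-high and Dll1-low cells, the 1 gene of the 7 lists at least 2-fold apart was the substrate Fn1 (-1.04), the matrix protein fibronectin.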

How the data were processed

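Total RNA of 6 samples was measured on 2-colour arrays, with the sample in Cy5 and the reference in Cy3 on each, per the labels; dyes were never swapped. Per the file headers, files came from Agilent Feature Extraction 11.0.1.1 (basal cells) and 12.0.2.2 (macrophages), while the submitters' processing notes give 11.0. Spot and background signals are unprocessed median intensity values, per the file headers, and the log ratio is the log10 of processed sample over reference signal. Log2 ratios stand in the authors' deposited table of values (slope 1.00 to 1.01 against the scanner's log ratio; column medians -0.117 to 0.139; not centred per gene).

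Background was corrected with normexp (offset 50) and ratios normalized by loess within arrays (limma 3.58.1 in R 4.3.3, with version 1.17.8 of the data.table package). Spots marked as outliers (170 to 500 of 62976 per array) were left out, and spots were averaged per probe. Fits ran over all probes; a probe entered where its Cy5 signal was above background by the scanner's test on 2 or more of 4 arrays (KO against WT), 2 or more of 6 (cell types) or 1 or more of 2 (Dll1 states). They were checked on simulated data with a fixed noise and large effects, which does not show their power at the spread of these arrays. Prior degrees of freedom were 2.20 and 1.78. The members and lists were chosen with earlier results of these data known. Named in full are the Timps, then the genes with the largest differences in each comparison, among members well above background on every array of a group (40 genes); other genes are named where counts are small. Probe coordinates are on mm9, per the file headers. The values of 1 substrate gene are not reported here.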

Additional observations from a re-analysis of the deposited data

How the results depend on the processing

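No member passed the threshold between KO and WT (0 to 0 with each replicate left out; 0 with the replicate block), and none was 2-fold apart between the Dll1 states, under any setting run. Over all probes, the count 2-fold apart between Dll1 states rose from 77 to 2045 with the scanner's processed signals or the authors' value table and to 206 with offset 16. Members higher in basal cells without overlap numbered 11 with median centring, 4 of 20 tested where every array had to be above background, and 6 to 8 with a replicate left out; those lower numbered 3 to 4 with a replicate left out. Members passing the adjusted threshold between cell types, higher in basal cells, numbered 0 to 0 with a replicate left out and 1 (Adamts18) with the mean of a gene's probes, with a robust trend and with the replicate block, a fit chosen after seeing the data. All probes passing there, both directions, numbered 0 in the main fit and 123 plus 194 with the block. For the counts without overlap, the share of all probes was taken in the main setting only, so the other counts have nothing beside them. Median centring also moved the median basal minus macrophage difference of all probes from -0.03 to 0.14. Median centring turned the KO minus WT differences of Adamts14 (0.48), Mmp11 (0.25), Timp2 (0.31) and Timp4 (0.018) to above 0, leaving out WT replicate 1 did so for Adamts14 (0.11) and Adamts15 (0.019), whose values ranged from -1.32 and -1.80 with another replicate left out, and the Cy5 channel alone turned Adamts12 between Dll1 states (0.44). The cause was not tested. The replicate numbers share only a number in the labels: deviations from the group means correlated at 0.575 between same-numbered arrays over 34570 probes, with 2 pairs. Depth is set by signal over background: 20 of 46 genes were measured on all 6 arrays.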
